A study of Rattus norvegicus with 14 samples.

Results

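The macrophage genes Cd68, Csf1r, Cd14, Cd163, Mrc1, C1qa, C1qb, C1qc, Aif1 and Tyrobp were followed in foreskin of newborn rats. They were chosen by name, as probe sets annotated with exactly 1 gene symbol among these names, with the brightest probe set kept where a gene had several. All 10 were measured, each by 1 probe set, among 14497 genes tested. The tissue was foreskin of Sprague Dawley pups on postnatal day 5, and each sample pooled RNA of 2 foreskins of 1 litter. The mothers of 7 litters had received the antiandrogen flutamide by gavage, 5 mg per kg each day over gestational days 16 to 20. The mothers of the other 7 litters had received corn oil on the same days. Samples were hybridised to Affymetrix Gene 1.0 ST arrays, which give 1 log2 value per probe set and litter. The litter was the replicate, and the comparison asks whether prenatal exposure to flutamide left a difference in these transcripts after birth.

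Tissue macrophages are resident phagocytes that clear dying cells, sample the matrix and present antigen. Those of the skin lie mainly in the dermis, and their survival depends on the receptor of colony stimulating factor 1, encoded by Csf1r. Many carry scavenger receptors such as CD163 and CD206, and many secrete the C1q subunits that start the classical complement pathway. Flutamide blocks the androgen receptor, which directs the growth of the male external genitalia, the foreskin included, in late gestation.

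The arrays carried the transcripts of the labelled tissue. Krt14, a keratin of basal epidermis, averaged 9.82 ± 0.16 log2 units in flutamide litters and 9.87 ± 0.12 in corn oil litters (SD, n = 7 each). Col1a1, a chain of type I collagen, averaged 9.08 ± 0.16 in flutamide litters and 9.01 ± 0.14 in corn oil litters. Krt5 was not tested, because its probe set carries more than 1 symbol. Correlations between arrays ran from 0.984 to 0.992 across genes. The values of the 10 macrophage genes lay between 5.05 and 7.78 log2 units. These are not detection calls, and values of different probe sets were not compared with each other, since each probe set has its own brightness. Corn oil replicate 1 stood apart on these genes and flutamide replicate 1 on interferon genes, so results are given with and without these litters.

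None of the 10 genes passed an adjusted p of 0.05 between flutamide and corn oil litters in the limma fit across all genes, in either direction. Of all genes tested, 1 passed, which is 0.0069%. Of the 10 differences, 7 were below 0 and 3 above. Over all genes 47.7% of differences were below 0. The median difference of the 10 was -0.07 on the log2 scale, against 0.00 for all genes. It was -0.007 with array SD as a covariate and -0.02 with the mean of 5 leukocyte genes as one. Those 5 genes also belong to the macrophage identity list described below. That fit therefore removes shared changes of macrophage RNA and cannot test them. At an unadjusted p under 0.05, 1 of the 10 was lower, Cd163, where 3.46% of all genes were lower, and none was higher, where 5.7% of all genes were. In neither direction did the groups of any of the 10 genes separate without overlap, as they did for 0.124% of all genes. In the exact permutation test Cd163 alone had an unadjusted p under 0.05. That test cannot go below a p of 0.000583 here, and the lowest adjusted p it gave any gene was 0.400, so no gene could be called by it. For 9 of the 10, the 95% interval of the difference held 0, and over the 10 genes the intervals ran from 0.791-fold to 1.28-fold. A p that misses the threshold does not show that the groups were alike. In these bulk samples fewer macrophages and less RNA per macrophage cannot be told apart.

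Leaving out flutamide replicate 1 gave the same counts. None of the 10 passed, against 0.0% of all genes, 7 differences were below 0, where 47.5% of all genes were, and the median was -0.08. Cd163 was again the single gene lower at an unadjusted p under 0.05, where 4.0% of all genes were lower and 6.22% higher. None of the 10 had groups without overlap, where 0.331% of all genes did. Leaving out corn oil replicate 1 instead gave 5 differences below 0 and 5 above, with a median of -0.004, where 48.0% of all genes were below 0. Cd163 alone was lower at an unadjusted p under 0.05, where 3.15% of all genes were lower and 4.79% higher. Without both litters 6 were below 0 and 4 above, with a median of -0.02, where 47.9% of all genes were below 0.

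**Figure D1:**
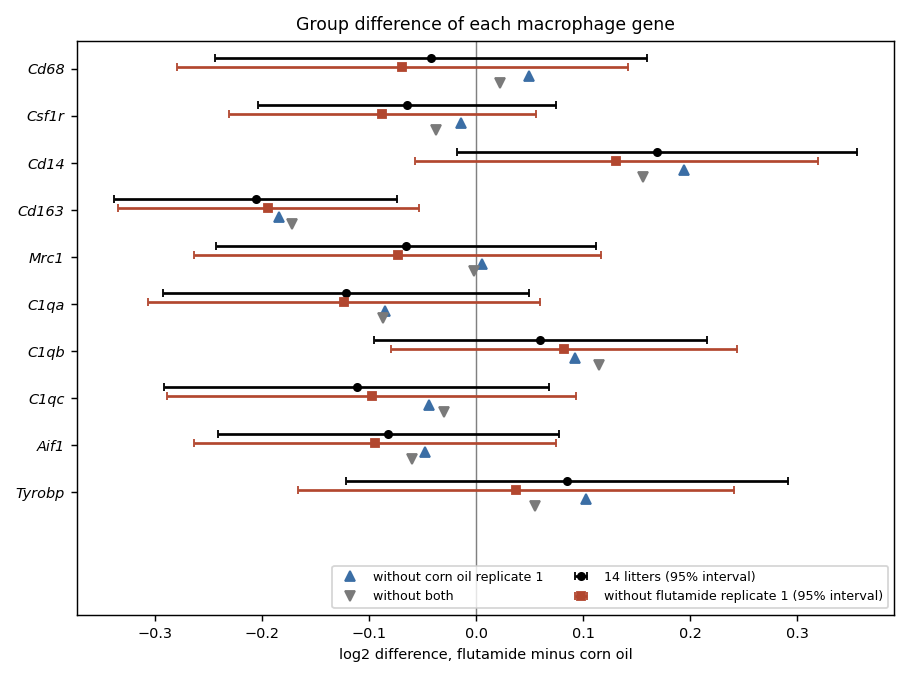
Difference of each macrophage gene, flutamide minus corn oil, on the log2 scale (horizontal axis), with limma's 95% interval over all 14 litters and without flutamide replicate 1. Triangles give the difference without corn oil replicate 1 and without both litters. The interval of Cd163 lies below 0, and the other 9 intervals include 0.

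Cd163, the scavenger receptor that takes up haemoglobin bound to haptoglobin, had the smallest p of the 10. Its log2 value ran from 5.05 to 5.34 with a median of 5.18 in flutamide litters, and from 5.23 to 5.54 with a median of 5.43 in corn oil litters. The groups overlapped, but every flutamide litter lay below the corn oil median and 4 of the 7 lay below the lowest corn oil litter. The difference was -0.21 (limma SE 0.06, 95% interval -0.34 to -0.07), a ratio of 0.867. The unadjusted p was 0.0041, which ranks 169 of 14497 genes, and limma's adjusted p was 0.348. The exact permutation test of this gene alone gave an unadjusted p of 0.00641. Without flutamide replicate 1 the difference was -0.19 (adjusted p = 0.322), without corn oil replicate 1 it was -0.18 and without both it was -0.17. Over single litters left out, the adjusted p of the 14-litter comparison ran from 0.308 to 0.513. Its direction was thus the same whichever litter was left out, while it did not pass in any of these fits.

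Mrc1 encodes the mannose receptor CD206, which binds sugars of microbes and of the body's own glycoproteins. Its log2 value ran from 7.12 to 7.42 with a median of 7.34 in flutamide litters, and from 7.14 to 7.78 with a median of 7.32 in corn oil litters. The groups overlapped almost wholly, apart from corn oil replicate 1 at 7.78. The difference was -0.07 (SE 0.08, adjusted p = 0.855), -0.07 without flutamide replicate 1 and 0.006 without corn oil replicate 1.

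Cd14, the receptor that hands lipopolysaccharide to TLR4, had the largest difference above 0 of the 10. It ran from 5.82 to 6.17 with a median of 5.86 in flutamide litters, and from 5.43 to 6.04 with a median of 5.74 in corn oil litters. All 7 flutamide litters lay above the corn oil median, and 4 corn oil litters lay below the lowest flutamide litter. The difference was 0.17 (SE 0.09, 95% interval -0.02 to 0.36), with an unadjusted p of 0.0741 and an adjusted p of 0.589 in limma. Without flutamide replicate 1, the highest of the 14 litters for this gene, it was 0.13 (adjusted p = 0.652). Without corn oil replicate 1 it was 0.19 (adjusted p = 0.628). Over single litters left out it ran from 0.11 to 0.21. In these fits limma's unadjusted p ran from 0.0265 to 0.190 and its adjusted p from 0.455 to 0.799. Cd14 and Cd163 thus stood on opposite sides of 0 in the same litters. The difference between these differences was not tested.

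Csf1r, the receptor kinase for CSF1 on which macrophages depend, ran from 6.07 to 6.30 with a median of 6.11 in flutamide litters. In corn oil litters it ran from 6.11 to 6.53 with a median of 6.17. The groups overlapped, and the highest value belonged to corn oil replicate 1. The difference was -0.06 (SE 0.07, adjusted p = 0.811), -0.09 without flutamide replicate 1 and -0.01 without corn oil replicate 1. Tyrobp, the adaptor DAP12 that signals for TREM2 and related receptors, ran from 5.91 to 6.41 with a median of 6.06 in flutamide litters, and from 5.63 to 6.31 with a median of 5.97 in corn oil litters. The groups overlapped. Its difference was 0.09 (SE 0.10, adjusted p = 0.835), and 0.04 without flutamide replicate 1, which held the highest value. Without corn oil replicate 1 it was 0.10.

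Cd68, a glycoprotein of the lysosomal membrane, ran from 6.23 to 6.55 with a median of 6.36 in flutamide litters, and from 6.21 to 6.98 with a median of 6.35 in corn oil litters. The medians differed by far less than the spread, and corn oil replicate 1 lay above all other litters. The difference was -0.04 (SE 0.10, adjusted p = 0.932), -0.07 without flutamide replicate 1 and 0.05 without corn oil replicate 1. Aif1 encodes IBA1, an actin-binding protein of macrophages and microglia. It ran from 5.66 to 6.05 in flutamide litters and from 5.73 to 6.15 in corn oil litters, with a median of 5.92 in each group. Its groups overlapped. Its difference was -0.08 (SE 0.08, adjusted p = 0.783), -0.09 without flutamide replicate 1 and -0.05 without corn oil replicate 1. It ran from -0.12 to -0.05 over single litters left out, and was also near -0.05 without flutamide replicates 3 or 7.

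The 3 genes of the C1q chains did not lie on 1 side of 0. C1qa, C1qb and C1qc are neighbours on chromosome 5 in the RefSeq annotation of GRCr8, with no other listed gene between them, and their products assemble into 1 molecule. C1qa ran from 5.45 to 6.01 with a median of 5.72 in flutamide litters, and from 5.72 to 6.04 with a median of 5.83 in corn oil litters. Its difference was -0.12 (SE 0.08, adjusted p = 0.694), -0.12 without flutamide replicate 1 and -0.09 without corn oil replicate 1. Over single litters left out it ran from -0.17 to -0.08, and it was -0.08 without flutamide replicate 3. In these fits limma's unadjusted p ran from 0.0372 to 0.332 and its adjusted p from 0.514 to 0.858. C1qc ran from 5.76 to 6.18 with a median of 5.95 in flutamide litters, and from 5.79 to 6.47 with a median of 6.01 in corn oil litters. Its difference was -0.11 (SE 0.09, adjusted p = 0.736), -0.10 without flutamide replicate 1 and -0.04 without corn oil replicate 1. C1qb ran from 5.79 to 6.13 with a median of 5.85 in flutamide litters, and from 5.66 to 6.05 with a median of 5.84 in corn oil litters. Its difference was 0.06 (SE 0.07, adjusted p = 0.848). It was 0.08 without flutamide replicate 1 and 0.09 without corn oil replicate 1, but 0.02 without flutamide replicate 7 and 0.03 without flutamide replicate 4 or corn oil replicate 5. In all 3 genes the groups overlapped, and none of the differences exceeded the spread between litters.

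**Figure D2:**
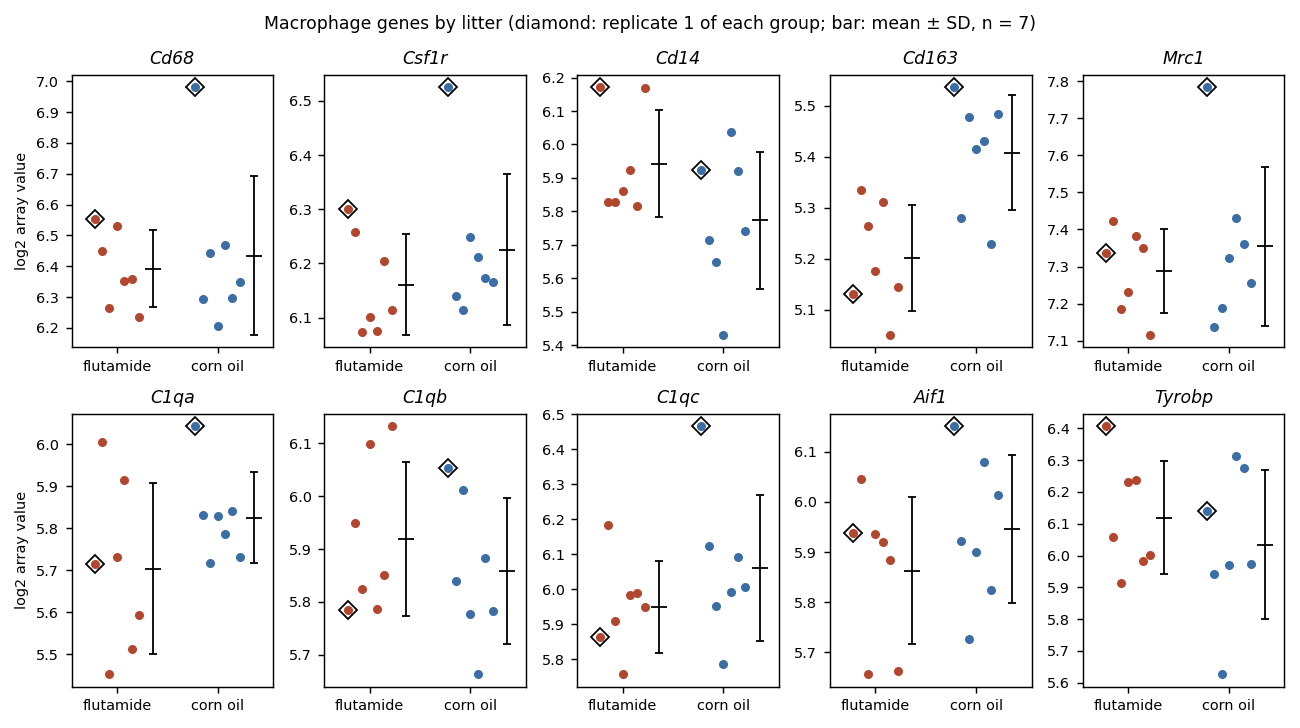
Log2 value of each macrophage gene in every litter (points), flutamide to the left and corn oil to the right, with the group means and SD. For Cd163 every flutamide litter lies below the corn oil median of 5.43, and for Cd68, Csf1r and Mrc1 corn oil replicate 1 lies above all other litters.

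Corn oil replicate 1 lay above its group mean for all 10 genes and was the highest of its 7 litters for 8 of them, where it was the highest of 7 for 16.7% of all genes. It was the highest of all 14 litters for 7 of the 10, namely Cd68, Csf1r, Cd163, Mrc1, C1qa, C1qc and Aif1, where it was the highest of 14 for 9.86% of all genes. Its mean over the 10 genes was 6.36, while the other corn oil litters lay between 5.99 and 6.14 and the flutamide litters between 5.94 and 6.15. For Cd68, Csf1r and C1qa its gap to the nearest corn oil litter was large enough against the range of the group to pass Dixon's outlier test, which this litter did at the top for 0.89% of all genes and any corn oil litter did for 6.33%. Relative to the mean of the other 6 corn oil litters, Cd68 was 0.64 higher in it (1.56-fold), Mrc1 0.50 (1.42-fold), C1qc 0.47 (1.39-fold) and Csf1r 0.35 (1.27-fold). Tyrobp and Cd163 exceeded that mean by 0.12 and 0.15, and for Tyrobp other corn oil litters were higher. This litter also had the array with the widest spread of values, an SD of 1.60, where the lowest was 1.48. It was the highest corn oil litter on the means of the mast cell list, at 6.10, and the endothelial list, at 6.88. On the fibroblast list it was also the highest, at 9.437, with the next corn oil litter at 9.431. It was the lowest corn oil litter on the T and NK cell list, at 4.78, and the B cell list, at 4.86. The dendritic and Langerhans cell list was lowest of all 14 litters in it, at 5.64. What part array spread or these cells had in its macrophage values was not tested. The group difference of the mean over the 10 genes was -0.04 with all litters and 0.007 without corn oil replicate 1.

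Flutamide replicate 1 was high for a partly different set of the 10 genes. It was the highest of 14 litters for Cd14, at 6.17, and Tyrobp, at 6.41, and the highest flutamide litter also for Cd68 and Csf1r. For Cd68 and Csf1r it ranked 2 of 14, behind corn oil replicate 1. It was the highest of 14 for 6.04% of all genes and the highest flutamide litter for 13.3%. For 0 of the 10 genes did a flutamide litter pass Dixon's outlier test, which this litter did at the top for 0.51% of all genes and any flutamide litter did for 5.97%. Its excess over the mean of the other 6 flutamide litters was 0.34 for Tyrobp and 0.27 for Cd14, while C1qb, C1qc and Cd163 were below that mean by values of -0.16, -0.10 and -0.08. Its mean over the 10 genes, 6.12, lay inside the range of the other flutamide litters. On the wider list of macrophage identity and CSF1 signalling it was the highest of all 14 litters at 6.01, with corn oil replicate 1 next at 5.98. On lysosomal and secreted products it was also the highest, at 6.681, with corn oil replicate 1 next at 6.679. On phagocytic and scavenger receptors corn oil replicate 1 was the highest, at 5.87, and flutamide replicate 1 was next at 5.81. On complement beyond C1q flutamide replicate 1, at 5.70, lay inside the range of the other flutamide litters. The same litter had an interferon response list mean of 5.91, where the other flutamide litters lay between 4.85 and 4.94 and corn oil litters between 4.90 and 5.03. Its neutrophil list mean was 5.22, against 4.86 to 4.95 in the other flutamide litters and 4.79 to 5.08 in corn oil litters. It was also the highest of all litters on the T and NK cell list, at 5.09, and the dendritic cell list, at 5.91. The part of these cells or of the interferon genes in its Cd14 and Tyrobp values was not tested. Among the other flutamide litters, replicate 2 was the highest of its group for 5 of the 10 genes and replicate 3 the lowest for 4.

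**Figure D3:**
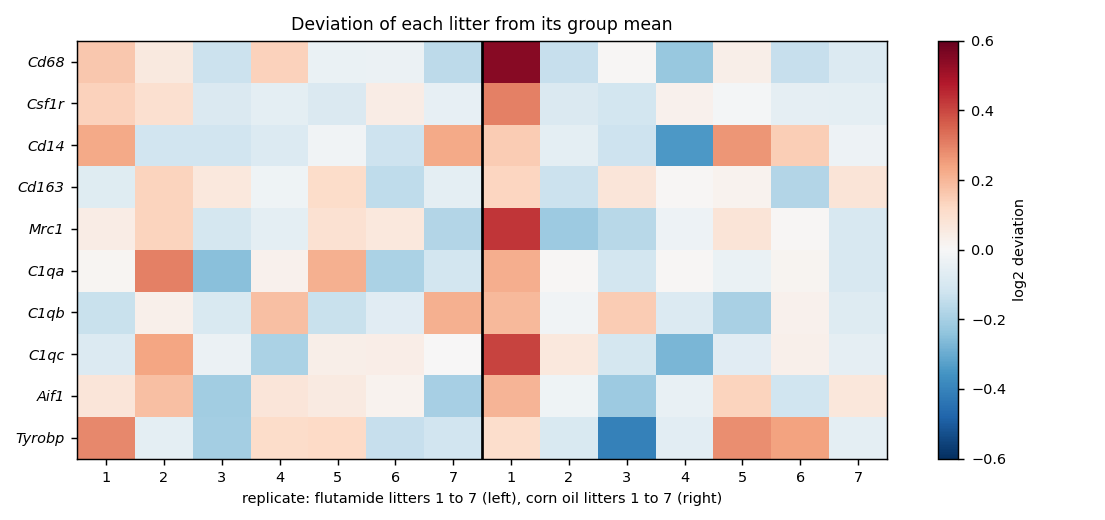
Deviation of each litter from its group mean (colour, log2 units) for each macrophage gene, flutamide litters in the left columns and corn oil litters in the right columns. Corn oil replicate 1 is above its group mean in all 10 genes, and flutamide replicate 1 is above it in 7.

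Scatter between litters was wide for some of the 10 genes and narrow for others. The pooled SD within groups was 0.208 log2 units for Tyrobp, 0.202 for Cd68 and 0.109 for Cd163, with a median of 0.167 over the 10 genes, beside 0.138 over all genes. Without corn oil replicate 1 the median over the 10 was 0.130, beside 0.136 over all genes, and Cd68 was at 0.113. Tyrobp, at 0.214, was as variable without that litter.

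Deviations from the group means were then compared between genes across the 14 litters, for all 45 pairs. The median Pearson r was 0.36 and 41 pairs were above 0, but without corn oil replicate 1 the median was 0.19 and 30 pairs were above 0. Adjustment over the 45 left 2 pairs past the threshold by Pearson's r (permutation test, two-sided) and 0 by Spearman's rho. Csf1r and Mrc1 had r = 0.84 (adjusted permutation p = 0.0270) and rho = 0.68 (adjusted p = 0.0777). Their r was 0.66 without the 2 litters farthest in Csf1r and 0.58 without corn oil replicate 1. Mrc1 and Aif1 had r = 0.73 (adjusted permutation p = 0.0387) and rho = 0.75 (adjusted p = 0.0777), with 0.78 without the 2 farthest litters and 0.69 without corn oil replicate 1. Without flutamide replicate 1 only Csf1r and Mrc1 passed, at r = 0.87 (adjusted permutation p = 0.0238).

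Cd14 and Tyrobp had r = 0.61 and rho = 0.69, with an adjusted permutation p of 0.0883 for r. The chains of C1q were not closely tied: r was 0.53 for C1qa with C1qc, 0.28 for C1qb with C1qc and 0.14 for C1qa with C1qb, and none passed. Against the mean of the other 9 genes, r was 0.85 for Mrc1 and 0.83 for Cd68, but 0.28 for Cd163 and 0.08 for C1qb. Cd163, the gene with the smallest p, and C1qb were thus the 2 that followed the rest least, also without corn oil replicate 1, where r was 0.002 for Cd163 and -0.42 for C1qb, beside 0.62 for Mrc1 and 0.72 for Aif1. All these arrays share their processing, and each correlation is over litters.

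**Figure D4:**
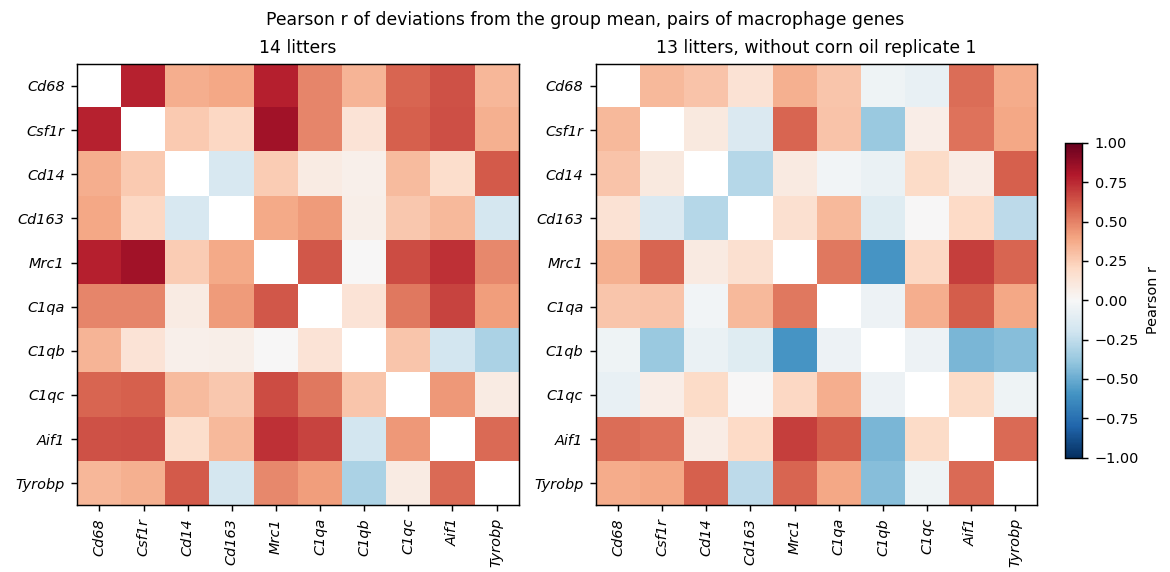
Pearson r between deviations from the group means for all 45 pairs of macrophage genes, over 14 litters and without corn oil replicate 1. Csf1r and Mrc1 have r = 0.84 over 14 litters and 0.58 without that litter, and the median over pairs is 0.36 and 0.19.

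The promoters of 7 of the 10 genes were read from RefSeq (GRCr8), each 250 bases before to 50 after the annotated start. They were searched on both strands for GAGGAA, a core in sites of the ETS factor PU.1, which macrophages need and Spi1 encodes, and for the core of the interferon-stimulated response element (ISRE). GAGGAA was in 5 of the 7, namely Cd68, Csf1r, Cd14, Mrc1 and C1qb, beside 27.6% of 33469 promoters, and was absent from these windows in Cd163 and C1qa. The ISRE core was in 0 of the 7, beside 3.92% of all promoters. No window held both, so no matches of the 2 motifs overlap. Printed 5′ to 3′ on the strand of the gene are the promoters of Cd68 (chr10:54882392-54882691, minus strand) and Mrc1 (chr17:82157475-82157774, plus strand), the 2 genes with the largest excess in corn oil replicate 1, and of Cd163 (chr4:158770524-158770823, plus strand), which had the smallest p. Capitals mark GAGGAA, or TTCCTC where it lies on the other strand.
Cd68: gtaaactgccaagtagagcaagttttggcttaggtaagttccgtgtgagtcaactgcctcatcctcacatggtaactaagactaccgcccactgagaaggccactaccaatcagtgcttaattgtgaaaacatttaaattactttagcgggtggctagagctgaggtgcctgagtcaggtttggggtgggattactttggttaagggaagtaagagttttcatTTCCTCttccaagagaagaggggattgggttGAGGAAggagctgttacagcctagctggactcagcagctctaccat
Mrc1: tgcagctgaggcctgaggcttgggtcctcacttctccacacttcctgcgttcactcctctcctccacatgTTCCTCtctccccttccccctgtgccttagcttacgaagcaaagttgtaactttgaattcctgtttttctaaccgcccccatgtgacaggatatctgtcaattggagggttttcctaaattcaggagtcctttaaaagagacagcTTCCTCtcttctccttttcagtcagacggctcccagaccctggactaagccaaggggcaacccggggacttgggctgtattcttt
Cd163: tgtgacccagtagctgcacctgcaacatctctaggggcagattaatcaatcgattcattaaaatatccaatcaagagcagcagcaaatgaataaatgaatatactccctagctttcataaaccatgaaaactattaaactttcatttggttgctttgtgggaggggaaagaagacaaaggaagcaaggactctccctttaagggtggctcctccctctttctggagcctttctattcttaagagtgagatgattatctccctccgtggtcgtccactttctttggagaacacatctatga
Cd68 and Mrc1 hold 2 matches each and Cd163 holds none. Csf1r, Cd14 and C1qb, not printed, hold 2 each as well, and C1qa holds none. The printed promoters were picked by array values, and a link between matches and array values was not tested. A match describes letters in these windows, not a bound site, and none of the arrays measured binding.

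No gene of the other macrophage lists passed either. Of the 19 measured genes of macrophage identity and CSF1 signalling, 12 differences were below 0, where 47.7% of all genes were, with a median of -0.03. None had an unadjusted p under 0.05 in limma, where 5.7% of all genes were higher and 3.46% lower. Without flutamide replicate 1, 2 were lower at that threshold, Ptprc and Lcp1, where 4.0% of all genes were lower. Without corn oil replicate 1 none was, where 3.15% of all genes were lower. Ptprc, the leukocyte antigen CD45, averaged 5.71 ± 0.31 in flutamide litters and 5.88 ± 0.21 in corn oil litters (SD, n = 7 each), a difference of -0.17 (adjusted p = 0.713 in limma), and -0.26 without flutamide replicate 1. Spi1 differed by -0.07, Csf1, the ligand of the Csf1r product, by -0.05 and Itgam, a chain of an adhesion and complement receptor, by 0.02. Adgre1, which encodes F4/80 in mice, differed by 0.009, or by -0.08 without flutamide replicate 1, the highest litter at 5.21. Lcp1, an actin-bundling protein of leukocytes, had the smallest p of this list, with a difference of -0.18 (adjusted p = 0.544), or -0.24 (adjusted p = 0.309) without flutamide replicate 1.

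Among 24 phagocytic and scavenger receptor genes, 1 was higher and 2 were lower at an unadjusted p under 0.05 in limma, where 5.7% of all genes were higher and 3.46% lower. Without corn oil replicate 1, 2 of the 24 were higher and 0 lower, where 4.79% of all genes were higher and 3.15% lower. Tlr2, a receptor of bacterial lipoproteins that works with CD14, averaged 4.57 ± 0.15 in flutamide litters and 4.34 ± 0.12 in corn oil litters, a difference of 0.23 (SE 0.07, adjusted p = 0.353). Cd36, a receptor of oxidised lipids, differed by -0.25 (SE 0.11, adjusted p = 0.523), or -0.18 without corn oil replicate 1. Fcgr2b, an inhibitory receptor of immunoglobulin, differed by -0.17 (adjusted p = 0.542), or -0.16 without that litter. Of the 22 genes of lysosomal and secreted products, 1 was higher and 3 were lower at that threshold, and 1 higher and 1 lower without corn oil replicate 1. The shares of all genes are those just given for the receptors. Il10, an anti-inflammatory cytokine, averaged 3.58 ± 0.26 in flutamide litters and 3.83 ± 0.14 in corn oil litters, a difference of -0.25 (adjusted p = 0.445). Ccl3, a chemokine of activated macrophages, differed by 0.24 (SE 0.08, adjusted p = 0.368) and Pf4, the chemokine CXCL4, by -0.19 (adjusted p = 0.520), or -0.14 without corn oil replicate 1. Itgam, Adgre1, Tlr2, Fcgr2b, Il10 and Ccl3 averaged under 5 log2 units in both groups, the cut used to leave out dim genes. So did Cfi, Cxcl11 and Synpr, named below. Whether such dim probe sets measured their gene is not known. Beyond C1q, 9 of 16 complement genes were below 0, where 47.7% of all genes were, with a median of -0.02. Cfi, the protease factor I, had the smallest p, with a difference of 0.17 (adjusted p = 0.504).

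The marker lists of other cells gave no passing gene. The T and NK cell list had 11 of 12 differences above 0 and a median of 0.06, but 9 of 12 without corn oil replicate 1 and 7 of 12, with a median of 0.04, without both litters. The endothelial list had 6 of 8 below 0 and a median of -0.05, and 7 of 8 without corn oil replicate 1. The mast cell list had 7 of 9 below 0 and a median of -0.10, and 6 of 9 with a median of -0.06 without corn oil replicate 1. Over all genes 47.7% were below 0. The interferon list had 11 of 24 below 0 with all litters and 17 of 24 without flutamide replicate 1. Over all genes 47.5% were below 0 without that litter. The list's median was then -0.07, and 4 of 24 were lower and 0 higher at an unadjusted p under 0.05 in limma. Of all genes, 4.0% were lower and 6.22% higher in that fit. The chemokine Cxcl11 had the largest difference above 0 of the interferon list. It differed by 0.42 with all litters and by 0.13 without flutamide replicate 1. Medians of the fibroblast and keratinocyte lists were -0.02 and -0.03.

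**Figure D5:**
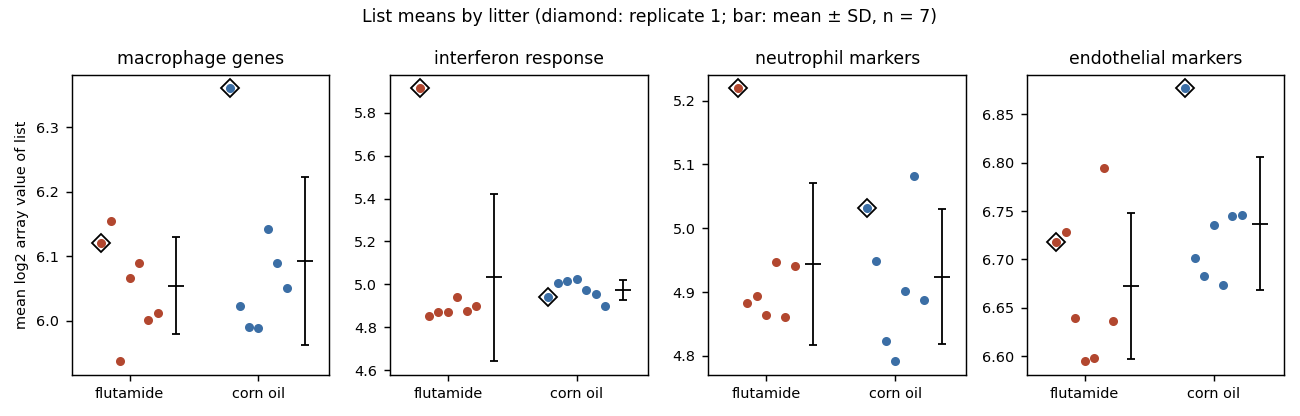
Mean log2 value of the macrophage genes and of the interferon, neutrophil and endothelial lists in every litter (points; diamonds mark replicate 1), flutamide to the left and corn oil to the right, with group mean and SD. Flutamide replicate 1 stands apart on the interferon list at 5.91, and corn oil replicate 1 on the macrophage genes at 6.36 and the endothelial list at 6.88.

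Genes outside the set were ranked by how closely their deviations followed the mean standardised deviation of the 10 over 14 litters. The closest 10 were Clxn, Tmem147, Clta, Sart1, Lman2, Ftl1, Gpx1, Cma1, Laptm5 and Mfap5, with Pearson r from 0.84 to 0.91 and Spearman rho from 0.66 to 0.86. Laptm5 encodes a lysosomal protein of blood cells, Cma1 a mast cell chymase, Ftl1 the ferritin light chain and Mfap5 a microfibril protein. With flutamide replicate 2 and corn oil replicate 1 left out, the litters farthest from the median of that mean, r was 0.44 for Mfap5 and 0.82 for Sart1, with the other 8 in between. Without flutamide replicate 1, 6 of the 10 were again among the closest 10, with Cdkn1c, Igfbp2, Mrps33 and Synpr as the other 4. Without corn oil replicate 1, 0 of the 10 were, and the genes in their place had r from 0.83 to 0.93. Each such list holds the highest r of all genes ranked, so high values of r follow from the choice. None of these genes passed between flutamide and corn oil litters.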

How the data were processed

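Foreskin RNA (Qiagen RNeasy) was amplified and biotin-labelled with NuGEN kits, 50 ng per sample, per the labels' protocols. The authors deposited 1 table of log2 values for 28826 probe sets, made with RMA per the submitters' processing notes. This method subtracts background, equalises the arrays and combines the probes of a probe set, so differences of dim probe sets shrink and a change shared by most genes is lost. No source used here gives its version. Neither scanner files nor detection calls were used.

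GEO's platform annotation named the probe sets. For 14471 of 14497 genes the gene identifier was found in RefSeq (GRCr8), and its symbol there was used. The other genes kept the platform's symbol. Probe sets with 1 symbol numbered 15209, those with several 306 and those with none 13311. The brightest of several probe sets over all samples stood for 494 genes.

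The comparison used limma 3.58.1 under R 4.3.3 (lmFit, then eBayes). Its p-values are two-sided, were adjusted over all genes after Benjamini-Hochberg and had a threshold of 0.05. They weigh each group difference against the spread between litters, and the number of arrays limits the precision. The fit was tested on simulated data. Single genes were also compared by exact permutation over all splits into 7 and 7, and correlations by 100000 permutations.

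The members and lists were chosen with earlier results of these data known. Named were all members, the 3 genes with the smallest p of each other list, the 10 genes closest to the members over 14 litters and without flutamide replicate 1, and 11 markers. Not all of those named by this rule are printed. Of the promoters, those of C1qc, Aif1 and Tyrobp were not analysed here, nor were protein sequences. Alternatives were other filters, summaries, scalings, variance models and covariates, the replicate number as a block, and single litters left out.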

Additional observations from a re-analysis of the deposited data

Results flagged for a closer look

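Within each group of 7 litters, the highest or lowest litter was marked where its gap to the nearest other, divided by the range of the group, exceeded Dixon's 95% critical value. Chance marks about 1 in 20 groups. Here 23 of 170 were, and 14 of them were corn oil replicate 1 and 5 flutamide replicate 1. Of those 14, 9 are genes named for following the mean of the 10 macrophage genes, on which this litter is the highest, so the choice of genes partly fixed that count. Among them, Cma1 was also named by the mast cell list. Without the genes chosen that way, Cma1 included, 14 of 142 groups were marked. Over all genes, 5.97% of flutamide groups and 6.33% of corn oil groups were marked.

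Of the 10 macrophage genes, 3 had such a litter, each time corn oil replicate 1 at the top: Cd68 (gap ratio 0.662), Csf1r (0.670) and C1qa (0.622). The mean of the 10 genes had a ratio of 0.590 there, with 6.36 in that litter against 5.99 to 6.14 in the other corn oil litters. The endothelial list mean had a ratio of 0.642 in the same litter. Of the genes closest to the 10 over 14 litters, corn oil replicate 1 was apart at the top for Cma1 (0.710), Clta (0.669), Clxn (0.642), Lman2 (0.632), Laptm5 (0.621), Tmem147 (0.600), Mfap5 (0.591) and Gpx1 (0.573), and for Synpr (0.624), one of those closest without flutamide replicate 1.

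Flutamide replicate 1 was apart at the top for the interferon list mean (0.918), the neutrophil list mean (0.761), Cxcl11 (0.788), Adgre1 (0.714) and Xcr1 (0.661). Xcr1 encodes a chemokine receptor of cross-presenting dendritic cells. The mast cell list mean was apart at the top in flutamide replicate 2 (0.590). Single litters lay apart at the bottom for Gzmb, a granule protease, in flutamide replicate 4 (0.635), for Pecam1, an endothelial adhesion molecule, in flutamide replicate 3 (0.617), and for Cpa3, a mast cell protease, in corn oil replicate 7 (0.672).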

How the results depend on the processing

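None of the 10 genes passed under any alternative run, and the median difference lay between -0.09 and -0.004 with single litters left out. It was -0.0069 with array SD as a covariate and -0.0154 with the leukocyte covariate named below. The 5 genes of that covariate are also on the macrophage identity list, so it removes shared changes of macrophage RNA. Cd163 stayed below 0 and Cd14 above 0 in all of these runs. Over 14 litters, Cd68 and Mrc1 turned sign. Cd68 was at 0.0281 with array SD as a covariate and 0.0308 with the mean of 5 leukocyte genes (Ptprc, Cd53, Laptm5, Lcp1, Coro1a) as a covariate, and Mrc1 was at 0.00484 with array SD as a covariate. With single litters left out, Cd68 ran from -0.0801 to 0.0489 and Mrc1 from -0.102 to 0.00571, each above 0 only without corn oil replicate 1.

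Without flutamide replicate 1, Cd68 was at 0.0221 with the replicate block. In that fit corn oil replicate 1 is alone in its block, so the difference is the same as with that litter left out. With a further litter left out, Cd68 ran from -0.107 to 0.0221, above 0 only without corn oil replicate 1, and Tyrobp from -0.0307 to 0.0840, below 0 only without corn oil replicate 3. The leukocyte covariate in these 13 litters, chosen after seeing the data, gave a median of 0.0874, with Cd68 at 0.152, Mrc1 at 0.126, C1qc at 0.0907, Aif1 at 0.0417 and Csf1r at 0.0292, each below 0 without that covariate. The cause was not tested.

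Of all genes, 2 passed with an intensity trend and robust variances, 2 with array SD as a covariate, 0 with the replicate block and 0 to 1 with single litters left out. The median SD of the 10 genes was 0.130 without corn oil replicate 1, and their median r ran from 0.19 to 0.41, both also examined without that litter after seeing the data. Same-numbered litters deviated together with correlations between -0.07 and 0.15, over 0.1 in 1 of 7 pairs, so the numbers were not taken as pairs. With the replicate block Cd163 had an adjusted p of 0.311 in limma. RMA values give no detection calls, so whether dim probe sets measured their gene is not known.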
